A study of Homo sapiens with 5 samples.

Results

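The Rab genes encode the largest family of small GTPases in membrane traffic, and their transcripts were followed in 5 RNA-seq libraries of HT1080 cells, a human fibrosarcoma line. Members were taken by gene symbol, as RAB followed by a number and, where present, a letter and a further digit, which gave 60 of the 27189 genes in the files. The cells had been embedded in rat-tail type I collagen at 2 mg per ml and kept for 24 h. The untreated library LD held 10 cells per mm3, and the untreated library HD held 50 cells per mm3. The IL-6 library received recombinant IL-6, the IL-8 library recombinant IL-8, and the RM library both in a ratio of 5 to 2, all at 10 cells per mm3. The comparisons ask how the transcripts of cells at low density differ when these cytokines are added, and how the untreated cells differ between densities. There was 1 library per condition, so no value here has a replicate error and no test of a condition was possible. All intervals in brackets are 95% exact intervals that cover the counting of reads only. HT1080 is a single line, and 1 source label calls the cells epithelial while another calls them fibrosarcoma cells of connective tissue.

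Each Rab cycles between a GDP-bound form, kept soluble by GDI, and a GTP-bound form that sits on 1 kind of membrane and recruits tethers, motors and sorting proteins. Exchange factors (GEFs) load GTP and GTPase-activating proteins (GAPs) end the active state, while prenylation by Rab geranylgeranyl transferase and its escort protein gives the GTPase its membrane anchor. RAB1 and RAB2 act between the endoplasmic reticulum and the Golgi, RAB6 at the Golgi, RAB8, RAB10 and RAB13 in delivery to the plasma membrane, RAB5 on early endosomes, RAB4 and RAB11 in recycling, and RAB7A on late endosomes and lysosomes. In migrating cells these routes carry integrins and matrix proteases to and from the cell surface.

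The libraries held 7118545, 5096134, 5491616, 6838104 and 926376 reads in the order LD, IL-6, IL-8, RM and finally HD, an order used for all lists of 5 values below. A single ribosomal RNA gene, RNA5-8S5, took 76.9% to 79.6% of the reads at low density and 51.5% in HD, and it was left out of all scaling, which left 449661 reads in HD and 1100967 to 1645539 in the others. HD stood apart in other ways: 74.0% of all genes had a read there, against 49.5% to 55.5% elsewhere. The mesenchymal markers, 10 of 10 with reads in LD and HD and 9 of 10 in the other libraries, summed to 3993 to 6761 TPM at low density and to 939 TPM in HD, where TPM counts transcripts out of 1000000 after correction for gene length. Of the 6 epithelial markers in the files KRT8, KRT18 and KRT19 were read in every library, EPCAM and ESRP1 had no read at low density, and CDH1 had 0, 0, 4, 6 and 34 reads. The 3 endothelial markers summed to 0.690 to 1.52 TPM at low density and 62.9 TPM in HD, and of the blood markers CD3E and HBB had no read at low density and 3 and 11 reads in HD, with PTPRC at 0, 1, 2, 0 and 36 reads and CD68 read in every library. The part of these differences in the HD values below was not tested, so the cytokine libraries are compared with LD first and HD is treated separately.

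Promoter sequences were available from RefSeq for 47 of the 60 Rab genes, and the 250 bases before the transcription start were searched on both strands. The median GC content was 64.8% against 58% for all 27305 promoters, and the median number of CpG dinucleotides was 21 against 11. The GC box GGGCGG, which Sp1 binds, was found in 37 of the 47 (78.7%, against 42.3% of all promoters), CCAAT in 12 (25.5% against 33.0%) and TATAAA in 2 (4.26% against 11.1%). The letters TTCNNNGAA, bound by STAT proteins such as the STAT3 that IL-6 receptors activate, were found in 2, RAB1B and RAB30 (4.26% against 6.78%). None of these motifs contains another, and a match describes the letters only. The windows below are in GRCh38.p14 and written 5′ to 3′ with motif matches in capitals. They are those of the most abundant member at low density, of 1 of the members with the STAT letters and of the member with the highest level in HD. Those of RAB17 and RAB40C, the members higher in IL-6 than in LD on at least 20 reads in the pair, are also given. RAB7A lies at chr3:128725933-128726182 on the plus strand and RAB1B at chr11:66268389-66268638 on the plus strand. RAB17 lies at chr2:237590735-237590984 on the minus strand, RAB40C at chr16:589107-589356 on the plus strand and RAB42 at chr1:28592015-28592264 on the plus strand.
RAB7A: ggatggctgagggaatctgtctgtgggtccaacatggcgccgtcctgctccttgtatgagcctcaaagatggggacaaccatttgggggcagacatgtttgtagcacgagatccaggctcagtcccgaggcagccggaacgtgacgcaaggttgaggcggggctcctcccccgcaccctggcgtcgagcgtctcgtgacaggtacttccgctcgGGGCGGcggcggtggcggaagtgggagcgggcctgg
RAB1B: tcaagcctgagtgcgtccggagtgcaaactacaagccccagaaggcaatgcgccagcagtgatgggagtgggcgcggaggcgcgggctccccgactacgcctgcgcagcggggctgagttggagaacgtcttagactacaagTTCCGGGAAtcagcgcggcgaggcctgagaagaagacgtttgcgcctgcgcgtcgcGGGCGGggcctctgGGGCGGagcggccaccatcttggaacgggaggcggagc
RAB17: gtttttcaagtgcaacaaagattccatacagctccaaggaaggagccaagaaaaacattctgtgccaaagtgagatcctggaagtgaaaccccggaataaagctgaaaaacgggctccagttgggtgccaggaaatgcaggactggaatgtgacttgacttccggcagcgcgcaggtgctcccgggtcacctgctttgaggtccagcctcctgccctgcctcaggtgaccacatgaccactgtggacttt
RAB40C: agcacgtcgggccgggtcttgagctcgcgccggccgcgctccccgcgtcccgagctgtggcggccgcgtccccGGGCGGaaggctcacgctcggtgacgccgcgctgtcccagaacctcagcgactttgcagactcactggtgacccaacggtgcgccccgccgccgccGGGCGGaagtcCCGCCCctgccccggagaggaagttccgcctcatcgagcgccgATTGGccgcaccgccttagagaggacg
RAB42: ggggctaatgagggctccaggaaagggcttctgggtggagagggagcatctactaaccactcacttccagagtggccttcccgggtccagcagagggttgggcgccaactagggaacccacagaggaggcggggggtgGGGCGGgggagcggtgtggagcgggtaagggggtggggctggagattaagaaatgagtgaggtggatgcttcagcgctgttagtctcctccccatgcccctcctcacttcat
The RAB17 window held none of the motifs and 6 CpG dinucleotides, and the RAB42 window held 1 GC box and 7 CpG dinucleotides. The RAB7A window, at 20 CpG dinucleotides, had 1 GC box. In RAB40C there were 38 CpG dinucleotides, 3 GC boxes and 1 CCAAT box, with CCGCCC and ATTGG being the opposite-strand forms.

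Of the 60 Rab genes, 55 reached 1 TPM in at least 1 library, the minimum set for the comparisons. RAB3C, RAB19 and RAB41 had no read in any library, and RAB30 and RAB6C had 1 and 2 reads, in LD only. A read was found in all 4 low-density libraries for 39 members and in HD alone for 5 (RAB25, RAB37, RAB38, RAB39A and RAB39B). The 25 members with a mean of at least 20 reads over the low-density libraries are called well counted here, and most statements rest on them. Together the Rab genes took 0.413% (0.403 to 0.423), 0.410% (0.399 to 0.423), 0.338% (0.327 to 0.349), 0.371% (0.361 to 0.381) and 0.199% (0.187 to 0.213) of the reads outside RNA5-8S5. The LD and IL-6 shares overlapped, while those of IL-8, RM and HD lay below them. A share also falls when other genes take more reads, and the Rab sum under other scalings of the libraries was not computed. In bulk RNA, fewer cells of a type and less RNA per cell cannot be told apart.

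Transcripts of a few broadly expressed members dominated the family at low density. RAB7A, which directs late endosomes to lysosomes, was the most abundant in each of the low-density libraries at 863, 719.6, 525 and 845 TPM, and stood at 92.2 TPM in HD. RAB13, which acts in delivery to the plasma membrane and at cell junctions, followed in mean level with 571, 537, 364, 586 and 191 TPM. RAB5C, 1 of the 3 paralogs that drive early endosome fusion, had 336, 408, 341, 273 and 10.2 TPM. RAB1B, needed for transport from the endoplasmic reticulum to the Golgi, had 236, 257, 177, 235 and 64.3 TPM. RAB11B, of the recycling endosome, had 190.1, 258, 212, 115 and 79.7 TPM. These 5 genes had the highest means at low density. The 5 most abundant members of each library took 71.4% to 78.8% of all Rab TPM at low density and 43.6% in HD.

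The next members in mean level came from several routes. RAB2A, which acts on Golgi membranes, had 98.1, 113, 83.7, 94.1 and 14.2 TPM. RAB31, which carries cargo between the Golgi and endosomes, had 118, 121, 67.9, 67.0 and 12.3 TPM, so that IL-8 and RM lay below LD and IL-6. RAB10, of exocytic carriers, had 102, 77.2, 67.4, 65.6 and 3.89 TPM and was highest in LD. RAB34, which acts at the Golgi and in cilium formation, had 78.8, 75.9, 25.6, 70.4 and 55.1 TPM, with IL-8 alone standing low among the low-density libraries. RAB8A, of exocytic carriers and the cilium, had 70.1, 47.8, 33.8, 31.9 and 51.1 TPM. RAB1A had a mean of 38.1 TPM over the low-density libraries and RAB3B, of regulated exocytosis, 26.0 TPM, and all other members were lower. The median well-counted member stood at the 80.4th percentile in mean TPM at low density, among the Rab genes and all genes past the minimum. Well-counted members were chosen by their reads in these same libraries, which favours a high percentile. No like value was taken for the other well-counted genes.

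**Figure D1:**
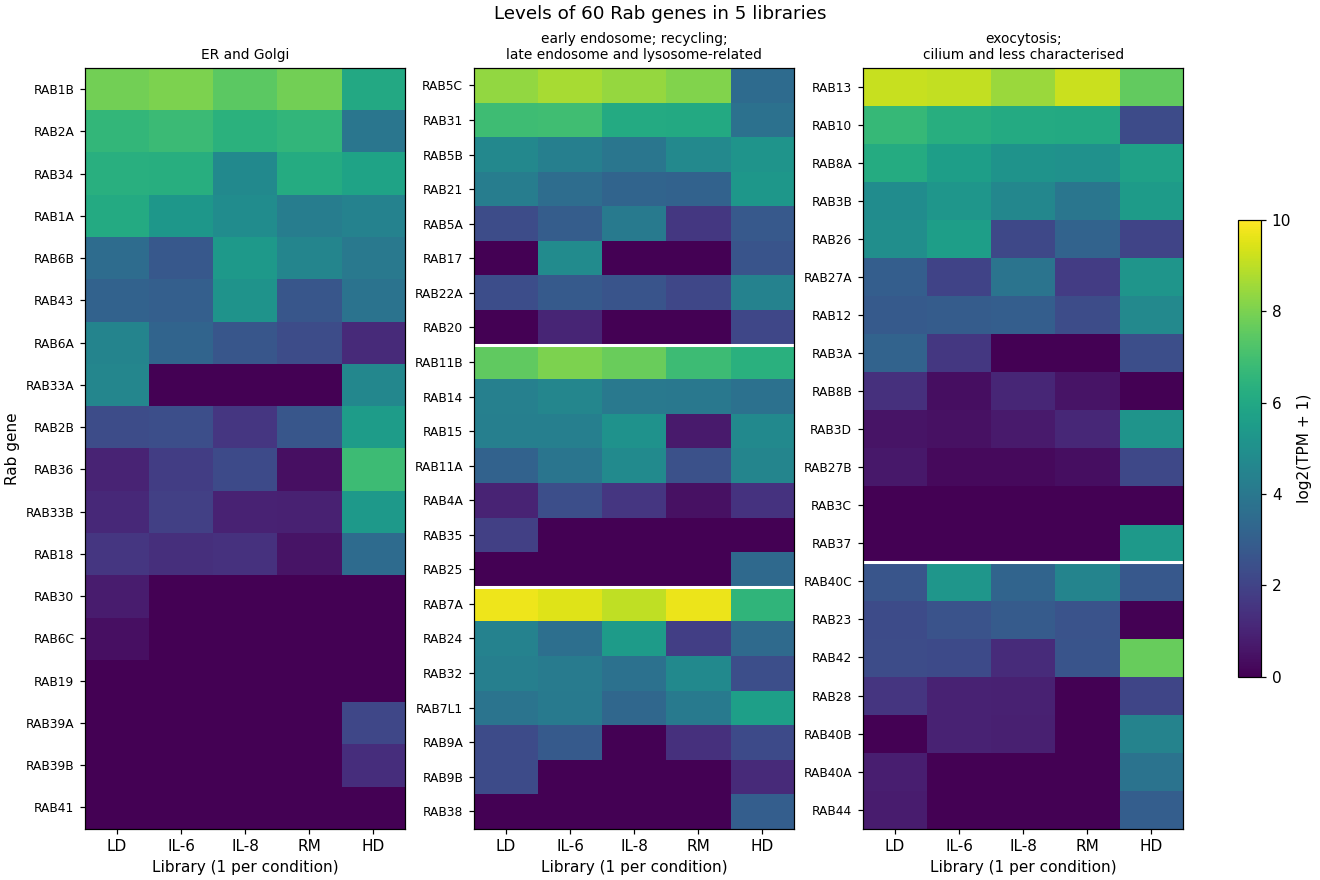
Each row is 1 of the 60 Rab genes, ordered by mean level within its role and separated by white lines between roles, each column is 1 library, and the colour gives log2(TPM + 1). RAB7A and RAB13 are bright in all 4 low-density columns, while the HD column has RAB42 (206 TPM), RAB13 (191 TPM) and RAB36 (115 TPM) as its highest values.

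The order of the members was much alike among the low-density libraries. Over the 60 members, log2(TPM + 1) values of pairs of low-density libraries had Pearson correlations of 0.90 to 0.93, as a description across genes that share library preparation, and pairs with HD had 0.49 to 0.52. Over all genes past the minimum the values were 0.89 to 0.93 and 0.31 to 0.34. The span from the lowest to the highest low-density library had a median of 1.11 log2 units for the 25 well-counted members and 1.40 for the 6633 well-counted genes. It reached 1 log2 unit in 14 of the 25 members (56%), against 71.5% of genes. The smallest span was that of RAB2A (0.43) and the largest that of RAB15 (4.40). RM was the lowest low-density library for 15 of the 25 members, against 46.8% of genes, but for 7 of them, against 25.6% of genes, when libraries were scaled by the median ratio across genes, a scaling that raises RM values relative to LD. IL-6 was the highest for 10 members (30.3% of genes), and for 3 with that scaling (15.3%).

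With IL-6, the abundant Rab transcripts stayed near their level in LD, and the differences lay in members with few reads. By 1 log2 unit of TPM + 1 or more, 10 of the 60 Rab genes differed, 4 higher and 6 lower, and 20.6% of all genes tested did so (12.2% higher and 8.42% lower). For 5 of them the interval of the read ratio also left out 1, against 10.5% of genes. Of the 25 well-counted members 2 differed (16.0% of well-counted genes). Of the 46 members that reached the minimum without HD 10 passed, against 29.0% of such genes. With no minimum, it was 10 of the 60 beside 16.2% of all genes. The median difference was 0 for the 60 members and 0 for all genes with no minimum. RAB7A, at 1901 reads in LD and 1063 in IL-6, differed by −0.26 on the log2 scale.

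Of the members higher in IL-6, RAB40C, whose SOCS box joins it to a Cullin-5 ubiquitin ligase, had 13, 63, 15, 53 and 3 reads, or 5.20, 37.7, 8.30, 21.7 and 5.81 TPM. Both libraries with IL-6 were high and the others low. Its read share was 7.24-fold higher in IL-6 than in LD (3.95 to 14.3). RAB17, a Rab of epithelial transcytosis, had 0, 33, 0, 0 and 2 reads. These 33 reads stood in the IL-6 library alone at low density, at least 16.4-fold above LD, where no read was found and the bound is set by a floor of 3 reads. RM, which also received IL-6, had none, so that the 2 libraries with IL-6 did not share this transcript.

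Of the members lower in IL-6, RAB33A, a Golgi Rab, had 24, 0, 0, 0 and 6 reads, which put IL-6 at least 5.35-fold below LD. The transcript was thus not detected in any of the 3 libraries with cytokine, where the floor of 3 reads stood at 2.09 to 2.72 CPM (reads out of 1000000 outside RNA5-8S5). RAB6A, which directs traffic out of and back to the Golgi, had 66, 16, 12, 11 and 1 reads and 21.8, 8.37, 5.35, 4.01 and 1.31 TPM. LD was the highest library and all 3 cytokine libraries lay below it. These comparisons share 1 LD library, so they are not separate evidence for RAB6A or for any other member. The read share in IL-6 was 2.76-fold lower (1.58 to 5.11). RAB35, of fast recycling, had 9 reads in LD and none in any other library, at least 2.01-fold lower in IL-6.

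**Figure D2:**
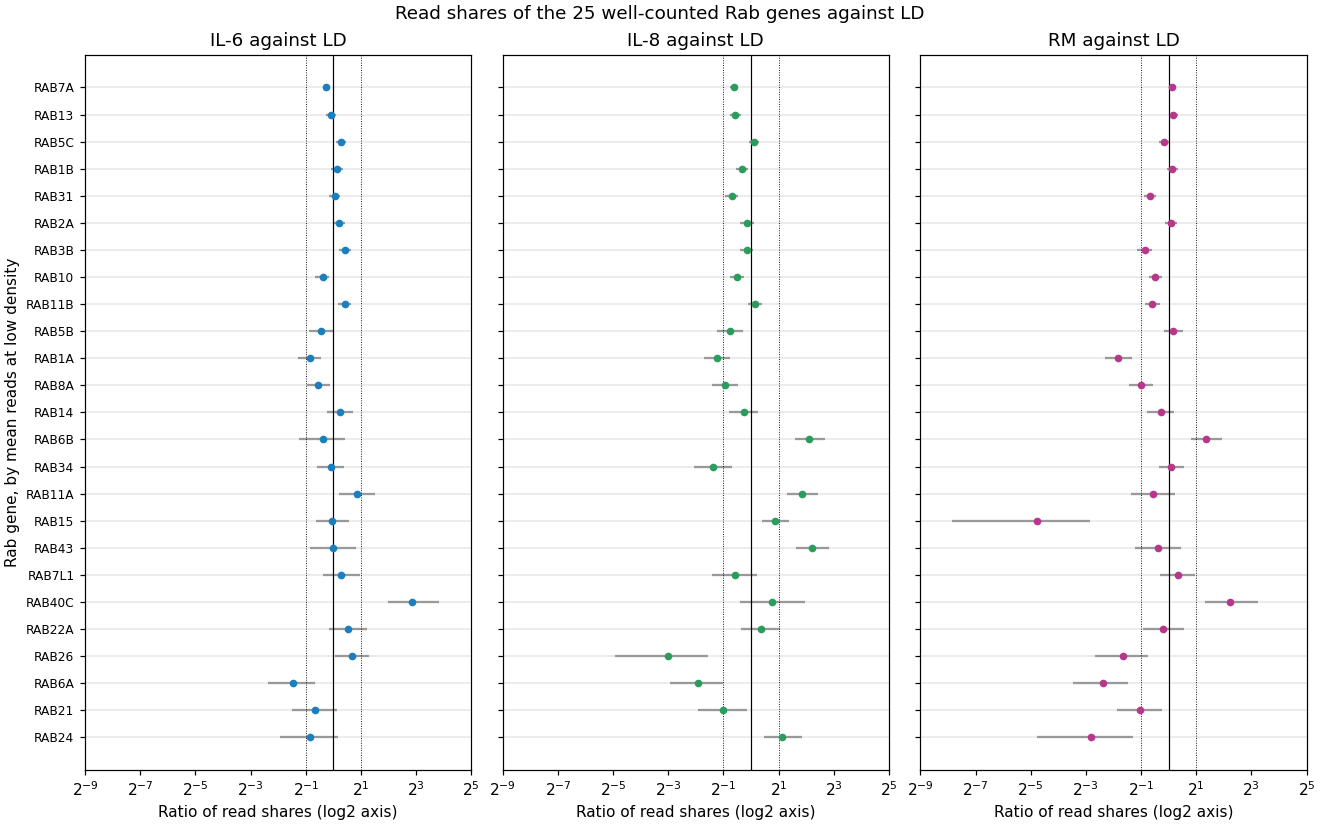
The 3 panels show the ratio of read shares outside RNA5-8S5 of IL-6, IL-8 and RM to LD for the 25 well-counted Rab genes, ordered by mean reads, on a log2 axis, where bars are 95% counting intervals, the solid line marks no difference and dotted lines mark 1 log2 unit. Members with many reads sit between the dotted lines, while RAB40C lies to the right in IL-6 and RM, RAB6B in IL-8 and RM, and RAB6A to the left in all 3 panels.

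With IL-8, Rab genes stood on both sides of LD, and RAB6A and RAB6B, both of the Golgi, lay on opposite sides. By the same limit of 1 log2 unit, 17 of the 60 Rab genes differed, 6 higher and 11 lower, and 27.3% of all genes did so (9.40% higher and 18.0% lower). With the median-ratio scaling the split was 8 higher and 8 lower. The interval of the read ratio left out 1 for 14 (16.8% of genes), and 9 of the 25 well-counted members differed, against 31.9% of well-counted genes. Of the 46 members that reached the minimum without HD 17 passed, against 38.5% of such genes. With no minimum, it was 17 of the 60 beside 21.4% of all genes. The median difference was −0.23 for the 60 members and 0 for all genes with no minimum. For the well-counted it was −0.41 and −0.33.

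Higher in IL-8 were RAB43, RAB6B, RAB5A, RAB11A and RAB24. RAB43, of traffic between the endoplasmic reticulum and the Golgi, had 33, 22, 105, 22 and 11 reads and 7.80, 7.20, 33.9, 5.42 and 12.9 TPM. IL-8 alone was high, 4.67-fold above LD (3.13 to 7.13). Its exons overlap those of the readthrough gene ISY1-RAB43 on the same strand, which had 283, 218, 164, 276 and 48 reads, and how the estimation divided shared reads was not tested. RAB6B, the paralog of RAB6A known mainly from neurons, had 39, 20, 115, 87 and 18 reads. The 2 libraries with IL-8 were high, at 4.33-fold above LD in IL-8 (2.99 to 6.40). SRPRB, which overlaps RAB6B on the other strand and cannot be told apart in shared exons by reads that carry no strand, had 109, 67, 58, 77 and 6 reads. RAB5A had 10, 12, 30, 5 and 3 reads, 4.41-fold higher in IL-8 (2.10 to 10.1). RAB11A had 39, 47, 96, 23 and 23 reads, 3.61-fold higher (2.47 to 5.39). RAB24, linked to autophagy, had 32, 12, 48, 4 and 3 reads, 2.20-fold higher (1.38 to 3.56). The last 3 members were highest in IL-8 and lowest, among the low-density libraries, in RM. RAB36, with 4, 7, 11, 2 and 88 reads, also passed both criteria in IL-8, on 15 reads in the pair.

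Lower in IL-8 with an interval that left out 1 were 8 of the 60 Rab genes. They were 4 of 18 of the endoplasmic reticulum and Golgi, 3 of 13 of exocytosis and 1 of 7 of recycling. Of all genes 18.0% were lower by 1 log2 unit, the share that also met the interval was not counted, and routes were not compared. RAB26, of secretory granules, had 47, 50, 4, 13 and 1 reads and 29.8, 47.3, 3.51, 7.97 and 3.14 TPM. LD and IL-6 were high and both libraries with IL-8 were low. Its read share in IL-8 was 8.0-fold below LD (2.93 to 30.6). RAB6A was 3.75-fold lower (2.01 to 7.61), the opposite direction to its paralog RAB6B. RAB34 had 91, 57, 24, 85 and 13 reads, 2.58-fold lower in IL-8 (1.63 to 4.23), while RM stayed near LD. RAB1A, the paralog of RAB1B, had 182, 67, 53, 45 and 11 reads, 2.34-fold lower in IL-8 (1.71 to 3.24), beside 5, 6, 8, 1 and 19 reads of CEP68, which overlaps it on the other strand. RAB8A had 150, 69, 53, 65 and 20 reads, 1.93-fold lower (1.40 to 2.69). The last 2 differences were under 1 log2 unit with the median-ratio scaling, at −0.88 and −0.63. RAB33A, with no read, was at least 5.45-fold lower, and RAB3A and RAB35, with 12 and 9 reads in LD, had none in IL-8. MPV17L2, which overlaps RAB3A on the other strand, had 45, 24, 28, 4 and 1 reads.

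With both cytokines, more Rab genes were lower than higher against LD. The limit of 1 log2 unit was passed by 16 of the 60, 2 higher and 14 lower, and 29.6% of all genes did so (7.11% higher and 22.5% lower). With the median-ratio scaling the split was 3 higher and 10 lower (26.4% of genes in either direction). The interval left out 1 for 13 (21.4% of genes). Without HD in the minimum it was 16 of 46, against 41.7% of genes, and with no minimum 16 of 60, against 23.2%. Of the 25 well-counted members 9 differed, against 41.1% of well-counted genes, with median differences of −0.46 for the members and −0.52 for the genes. The 3 members with the most reads lay near LD: RAB7A had 1901 reads in LD and 1788 in RM, RAB13 had 675 and 664, and RAB5C had 559 and 434.

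The members higher in RM were those already high with 1 of the cytokines. RAB40C, high in IL-6, was 4.68-fold above LD in RM (2.52 to 9.35), and RAB6B, high in IL-8, was 2.56-fold above LD (1.74 to 3.84). The largest difference among well-counted members was in RAB15, which acts on sorting and recycling endosomes. It had 63, 41, 79, 2 and 18 reads, or 19.0, 18.7, 33.4, 0.632 and 26.2 TPM, so that RM alone was low. The read share in RM was 27.5-fold below LD (7.29 to 232). RAB24, at 4 reads in RM, was 6.97-fold lower (2.47 to 27.1). MXD3, whose exons overlap those of RAB24 on the same strand, had 5, 14, 9, 212 and 0 reads and was highest in RM, and how shared reads were divided was not tested.

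Of the other members lower in RM, RAB6A and RAB33A, and on fewer reads RAB3A and RAB35, were among those also low with each single cytokine. RAB6A was 5.23-fold lower in RM (2.74 to 11.0) and RAB1A 3.53-fold lower (2.53 to 5.00). RAB33A was at least 6.97-fold lower. RAB26, at 13 reads, was 3.15-fold lower (1.68 to 6.35), between its values in LD and IL-8. RAB27A, which docks secretory vesicles and exosomes, had 24, 8, 35, 8 and 26 reads, 2.62-fold lower in RM (1.14 to 6.73). RAB21, which binds integrins during their uptake, had 47, 20, 16, 20 and 21 reads, 2.05-fold lower (1.19 to 3.65), and RAB8A was 2.01-fold lower (1.49 to 2.73). With the median-ratio scaling these last 3 differences were −0.65, −0.45 and −0.40 on the log2 scale, under the limit. RAB3A and RAB35 had no read in RM.

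**Figure D3:**
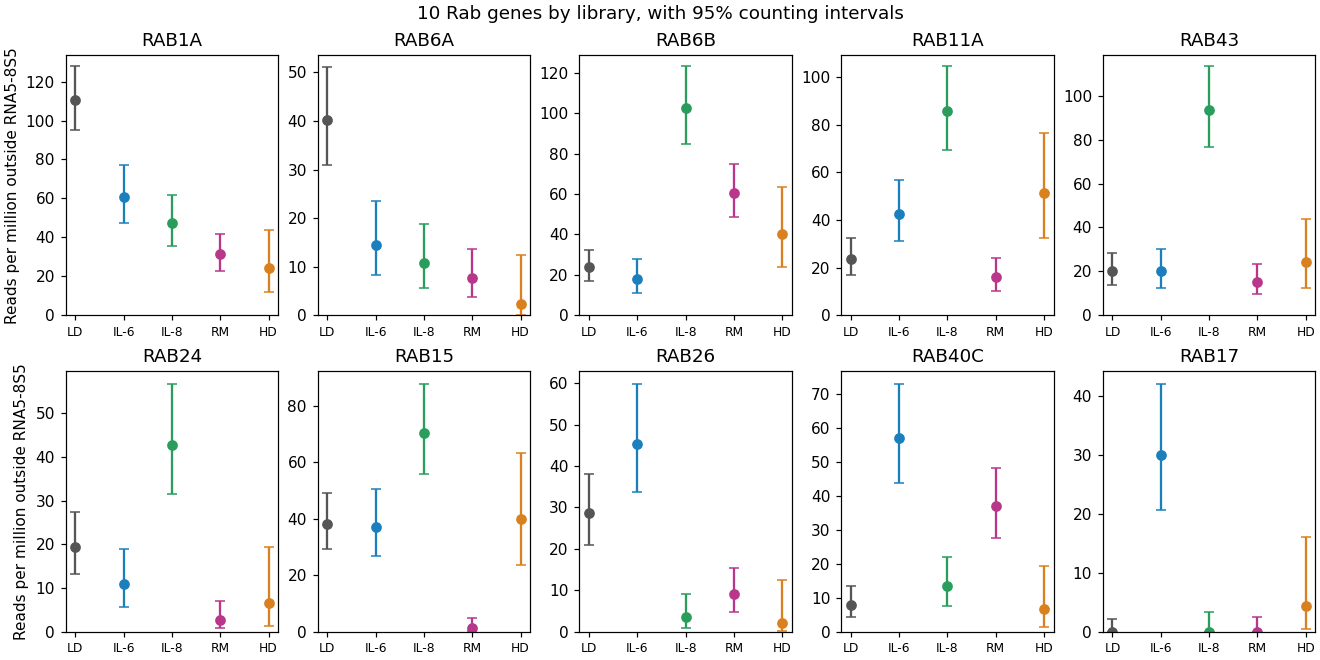
Each panel shows 1 of 10 Rab genes as CPM outside RNA5-8S5 in the 5 libraries, with 95% counting intervals as bars, and each vertical axis starts at 0. RAB1A and RAB6A are highest in LD, RAB43 and RAB11A in IL-8, RAB40C in IL-6 and RM, RAB15 is near 0 in RM alone, and RAB17 stands above 0 in IL-6 with 33 reads.

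Set against the single cytokines, RM differed in members of several routes. Against IL-6, 15 of the 60 Rab genes passed the limit, 1 higher and 14 lower (32.9% of all genes, 6.92% higher and 26.0% lower). With the median-ratio scaling it was 6 higher and 7 lower (27.6% of genes in either direction). Without HD in the minimum it was 15 of 46, against 46.4% of genes, and with no minimum 15 of 60, against 25.8%. RAB6B was 3.34-fold higher in RM (2.04 to 5.73). RAB17 was at least 14.3-fold lower, RAB15 26.7-fold lower (6.94 to 228) and RAB26 5.01-fold lower (2.68 to 10.1). RAB11A was 2.66-fold lower (1.58 to 4.59), RAB11B, with 262 reads in IL-6 and 171 in RM, 2.00-fold lower (1.64 to 2.43), and RAB3B, with 333 and 178 reads, 2.44-fold lower (2.03 to 2.94). RAB1A was 1.94-fold lower (1.31 to 2.90). With the median-ratio scaling these last 4 stood at −0.73, −0.38, −0.61 and −0.31, under the limit.

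Against IL-8, 14 of the 60 passed the limit, 6 higher and 8 lower (27.8% of all genes, 10.9% higher and 16.9% lower). With the median-ratio scaling it was 9 higher and 8 lower (29.0% of genes in either direction). Without HD in the minimum it was 14 of 46, against 39.2% of genes, and with no minimum 14 of 60, against 21.8%. RAB34 was 2.77-fold higher in RM (1.74 to 4.55) and RAB40C 2.76-fold higher (1.53 to 5.27). RAB32, of melanosome and lysosome-related organelle formation, had 22, 13, 10, 28 and 1 reads, 2.19-fold higher in RM (1.03 to 5.05). RAB2B, with 5 reads in IL-8 and 15 in RM, differed by 1.08 on the log2 scale, but its interval held 1. RAB15 was 50.6-fold lower in RM (13.5 to 425) and RAB24 15.4-fold lower (5.62 to 58.7). RAB5A was 7.68-fold lower (2.95 to 25.4), RAB43 6.11-fold (3.83 to 10.2), RAB27A 5.60-fold (2.55 to 14) and RAB11A 5.34-fold (3.36 to 8.83). The comparisons with RM share that library, and those with LD share the LD library, so neither set is separate evidence on any member. The difference between IL-8 and LD and that between RM and IL-6 pointed opposite ways, each by at least 1 log2 unit, in RAB5A, RAB11A, RAB24 and RAB36, that is 4 of 36 Rab genes with at least 20 reads at low density (11.1%, near the 9.52% of 10543 genes with an opposite pair for either cytokine). With the median-ratio scaling the pairs of RAB5A and RAB11A no longer met this limit, that of RAB15 did, and the count was 3 of 36 (8.33%, against 8.87% of genes).

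The paralogs of a subfamily did not keep their proportions, and these proportions do not depend on how libraries are scaled to each other. RAB1A made up 22.6%, 12.9%, 13.5%, 6.98% and 24.5% of RAB1 TPM, with RAB1B as the rest. Among low-density libraries its share was highest in LD and lowest in RM, where by reads it was 9.39% (6.94 to 12.4) against 28.7% in LD (25.2 to 32.4). RAB6B made up 32.2%, 40.9%, 88.5%, 84.9% and 92.2% of RAB6 TPM, the last on 19 RAB6 reads in HD. By reads its share was 36.4% in LD (27.4 to 46.3) and 55.6% in IL-6 (38.1 to 72.1). In the IL-8 library RAB6B took 90.6% of RAB6 reads (84.1 to 95), while RM stood at 88.8% (80.8 to 94.3), with a share of 94.7% in HD (74.0 to 99.9). At low density it was highest in the libraries with IL-8, with more reads of RAB6B and fewer of RAB6A in IL-8 and RM than in LD. RAB6C, a near-identical copy of RAB6A, had 2 reads in LD, and reads of these genes may have been divided between them.

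Other subfamilies kept 1 dominant paralog throughout the low-density libraries. RAB5C made up 90.9% to 94.1% of RAB5 TPM there, RAB2A 94.6% to 97.6% of RAB2, and RAB31 93.0% to 96.6% of the pair RAB31 and RAB22A. RAB11A made up 3.91%, 5.15%, 11.1% and 3.84% of the RAB11 subfamily with RAB25 counted in, and was highest in IL-8. RAB3B made up 76.7% to 97.4% of RAB3. In HD the order was different: RAB5C stood at 19.8%, RAB2A at 24.1% and RAB31 at 37.6%, with RAB5B, RAB2B and RAB22A as the larger paralogs. By reads RAB5C took 8.70% of 46 (2.42 to 20.8), RAB2A 30.6% of 36 (16.3 to 48.1) and RAB31 21.3% of 47 (10.7 to 35.7). TOX4, which overlaps RAB2B on the other strand, had 87 reads in HD.

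**Figure D4:**
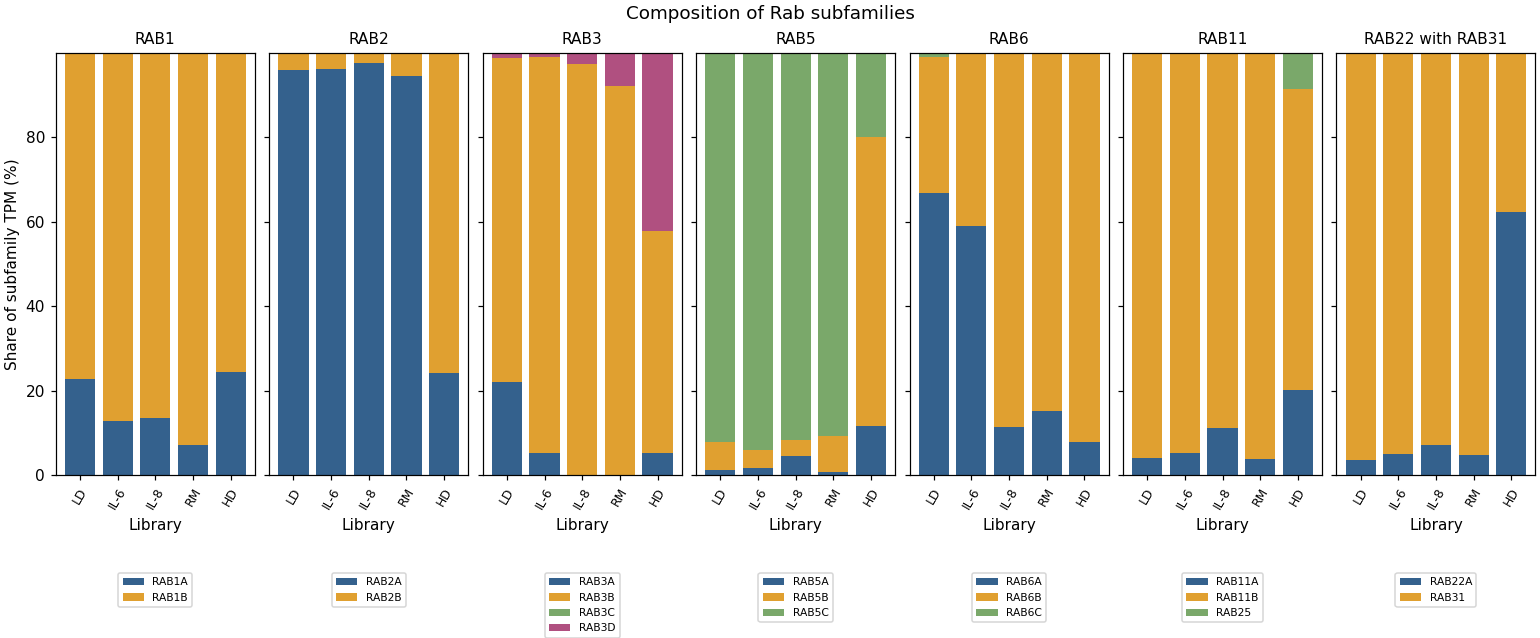
Stacked bars give the share of each paralog in the TPM of 7 Rab subfamilies, 1 bar per library. RAB6B takes 32.2% and 40.9% of the RAB6 bars of LD and IL-6 and 84.9% to 92.2% of the others, and in RAB2, RAB5 and RAB22 with RAB31 the major paralog of the 4 low-density bars is the minor one in HD.

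At high density without cytokine, the abundant Rab genes of low density were low and a set of sparse ones high. Abundant and sparse were set on the low-density libraries, LD among them, a choice that itself favours this contrast. The limit of 1 log2 unit was passed by 39 of the 60 against LD, 23 higher and 16 lower, but 80.4% of all genes did so in this comparison (60.1% higher and 20.3% lower). With no minimum, 39 of the 60 and 63.0% of all genes passed it. Of the well-counted members 15 of 25 did so, against 68.3% of well-counted genes. Of the 46 members that reached the minimum without HD 30 passed the limit, 14 higher and 16 lower (72.8% of such genes), so that the split turned, and the other 9 members counted as higher had reached it through HD alone. The interval left out 1 for 25 members, against 58.3% of genes. The median difference was 0.46 for the 60 members and 0.60 for all genes with no minimum, and −0.64 and −1.0 over the well-counted of each. Of the markers given above, the endothelial sum, PTPRC, CD3E and HBB were higher in HD, and CD68 and the mesenchymal sum were lower. Their part in these values was not tested. HD rested on 897 Rab reads in all, against 3785 to 6794 in the others, which limits every member below.

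Lower in HD, with an interval that left out 1, were 11 of the 60 Rab genes. They were 4 of 18 of the endoplasmic reticulum and Golgi, 3 of 13 of exocytosis, 2 of 8 of early endosomes, 1 of 7 of recycling and 1 of 7 of late endosomes. Of all genes 20.3% were lower by 1 log2 unit, the share that also met the interval was not counted, and routes were not compared. RAB5C had 559 reads in LD and 4 in HD, 38.2-fold lower as a share (14.8 to 141). RAB10 had 387 and 3, 35.3-fold lower (12 to 172). RAB7A had 1901 and 42, 12.4-fold lower (9.11 to 17.2), and took 28.0% of Rab reads in LD and 4.68% in HD. RAB31 was 13.0-fold lower (6.98 to 27.2), RAB2A 9.37-fold (5.17 to 18.9), RAB1B 4.95-fold (3.31 to 7.73) and RAB1A 4.52-fold (2.47 to 9.22). RAB13 was 3.42-fold lower (2.59 to 4.59) and RAB11B 4.03-fold lower by reads (2.56 to 6.70), the last at −1.24 on the log2 scale of TPM and −0.99 with RNA5-8S5 kept in the scaling. RAB6A and RAB26, with 1 read each in HD, were 18.0-fold (3.13 to 723) and 12.8-fold lower (2.20 to 518). RAB32, also with 1 read, had an interval that held 1.

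Higher in HD were members with few reads at low density. RAB42, of unsettled function, had 5, 3, 1, 6 and 43 reads and 4.05, 3.75, 1.36, 5.13 and 206 TPM, 31.5-fold higher by reads in HD than in LD (12.5 to 102) and the highest Rab TPM of that library. RAB36, of Golgi and late endosome positioning, had 4, 7, 11, 2 and 88 reads, 80.5-fold higher (30.4 to 302). RAB37, known from secretory granules of mast cells and neutrophils, had 27 reads in HD and none elsewhere, at least 32.9-fold higher. RAB3D, of secretory granules, had 2, 2, 3, 5 and 31 reads, 56.7-fold higher (14.4 to 489), and CCDC159, which overlaps it on the other strand, had 7, 3, 1, 6 and 15 reads. RAB33B, which acts at the Golgi and in autophagosome formation, had 5, 8, 3, 4 and 33 reads, 24.2-fold higher (9.37 to 79.3). RAB2B had 11, 8, 5, 15 and 25 reads, 8.32-fold higher (3.95 to 18.7), beside 87 reads in HD of TOX4 on the other strand.

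Smaller differences were seen in other members. RAB12 was 5.37-fold higher in HD (2.66 to 11.1), RAB27A 3.96-fold (2.19 to 7.21), RAB18 3.66-fold (1.37 to 9.80) and RAB22A 3.56-fold (2.20 to 5.76). RAB7L1, now named RAB29 and known as a partner of the kinase LRRK2, was 2.41-fold higher (1.46 to 3.94) and RAB11A 2.16-fold higher (1.23 to 3.70). RAB21 differed by 1.05 on the log2 scale of TPM, with a read interval that held 1. The member with the most reads in HD was RAB3B (117), followed by RAB36. RAB8A, at 51.1 TPM in HD and 70.1 TPM in LD, was among the few abundant members within 1 log2 unit, but HSH2D, which overlaps it on the same strand, had 43 reads in HD and 2 to 4 elsewhere.

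**Figure D5:**
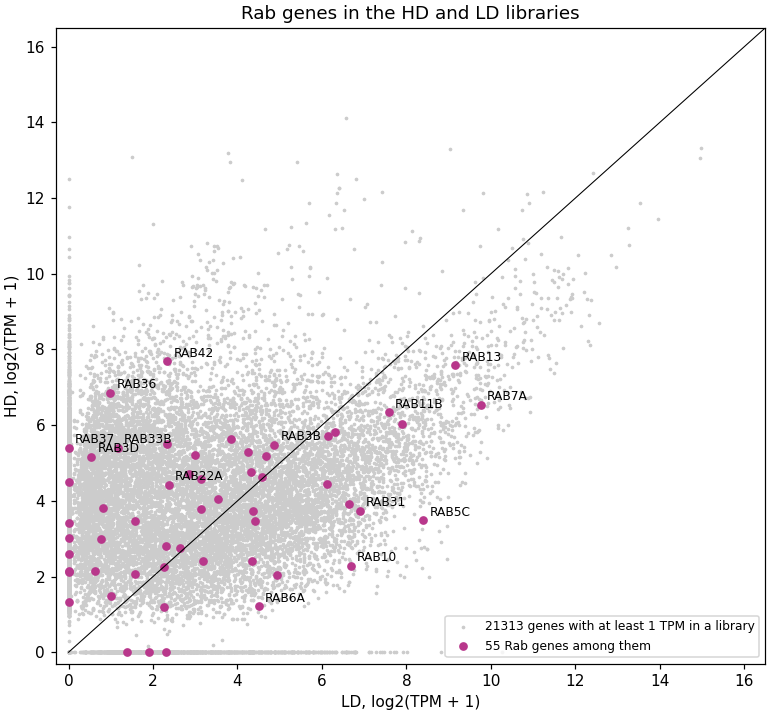
Each point is 1 gene with at least 1 TPM in a library, at its log2(TPM + 1) in LD on the horizontal and in HD on the vertical axis, with 55 Rab genes in colour and a line of equal level. RAB5C, RAB10, RAB7A and RAB31 lie below the line and RAB42, RAB36, RAB37, RAB3D and RAB33B above it, within a cloud of all genes that is itself spread widely on both sides.

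The genes that load, recycle and read out Rabs were taken as a list of 123, of which 122 reached the minimum. Of the shared machinery, RABAC1, which helps Rabs off GDI, had 518, 628, 595, 479 and 48 reads. GDI2, which extracts Rabs from membranes, had 346, 136, 173, 124 and 7 reads and was highest in LD. RABGGTA, the α subunit of the geranylgeranyl transferase, had 142, 45, 19, 169 and 5 reads, low in IL-6 and IL-8 but not in RM, and RABGGTB, its β subunit, had 14, 13, 6, 6 and 2. The escort proteins CHM and CHML had 18, 21, 7, 28 and 57 and 14, 17, 5, 10 and 74 reads, both highest in HD. RABIF, a chaperone of exocytic Rabs that stabilises RAB10, had 40, 8, 2, 0 and 7 reads, at least 11.6-fold lower as a share in RM than in LD, while the ratio of HD to LD was 0.640 with an interval that held 1 (0.242 to 1.44).

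In IL-6, 29 of the 123 differed from LD by at least 1 log2 unit (23.6%, against 20.6% of all genes), 14 higher and 15 lower. ALS2CL, a RAB5 exchange factor homologue, had 12 reads in LD and 62 in IL-6 (7.72-fold higher, 4.12 to 15.7), SGSM2, a GAP, 24 and 54, and MYO5B, the motor of RAB11 vesicles, 20 and 41. DENND1A, an exchange factor for RAB35, had 67 and 5 reads (8.97-fold lower, 3.66 to 28.5), and RAB3IP, which activates RAB8, 61 and 20. CCZ1, of the RAB7 exchange factor, had 29 and 4, but CCZ1B, also on the list, had 21 and 26. How reads were divided between CCZ1 and CCZ1B was not tested. In IL-8, 34 differed (27.6% against 27.3%), 8 higher and 26 lower, or 13 and 18 with the median-ratio scaling. MON1A and MON1B, partners of CCZ1, had 12 and 99 and 101 and 332 reads in LD and IL-8, 12.1-fold (6.63 to 24.2) and 4.83-fold higher (3.85 to 6.09). TBC1D14, which binds RAB11, had 14 and 57. MICALL2, a RAB13 effector, had 30 and 2 reads (10.2-fold lower, 2.59 to 88.2), RAB3IP 61 and 10 and RABIF 40 and 2.

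In RM, 45 differed from LD (36.6% against 29.6%), 9 higher and 36 lower, among them 15 of 34 GEFs lower, beside 22.5% of all genes lower. With the median-ratio scaling, where 26.4% of all genes differed, the split turned to 24 higher and 19 lower, with 7 GEFs lower. SYTL2, a RAB27 effector, had 7 reads in LD and 75 in RM (12.3-fold higher, 5.68 to 31.6), OCRL, a phosphatase that binds several Rabs, 12 and 60, and RABGEF1, which activates RAB5, 20 and 87. TBC1D13, a GAP, had 200 and 19 (9.18-fold lower, 5.72 to 15.6) and RAB11FIP3, a RAB11 effector, 29 and 1. Against IL-6, 49 differed in RM (39.8% against 32.9%), 10 higher and 39 lower, or 18 and 14 with the median-ratio scaling (27.6% of genes). SYTL2, OCRL and RABGEF1 were the furthest higher and TBC1D15, DENND3 and HPS1 the furthest lower. DENND3, an exchange factor for RAB12, had 35 reads in IL-6 and 2 in RM (22.8-fold lower, 5.86 to 196). Against IL-8, 46 differed (37.4% against 27.8%), 19 higher and 27 lower, or 26 and 23 with that scaling (29.0% of genes). MON1B, at 332 reads in IL-8 and 33 in RM, was 12.9-fold lower (8.99 to 19.0), TBC1D15 and DENND3 were also lower, and SYTL2, MICALL2 and OCRL were higher.

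In HD, 76 differed from LD (61.8% against 80.4%), 52 higher and 24 lower. RABGAP1L, a GAP, had 19 reads in LD and 305 in HD, 58.7-fold higher as a share (37.0 to 98.9). MLPH, which links RAB27A to myosin, had 0 and 24 (at least 29.3-fold higher), and SGSM1, also a GAP, 5 and 63 (46.1-fold higher, 18.7 to 147). RILPL2, a RAB8 and RAB10 effector, had 181 and 1 (49.5-fold lower, 8.77 to 1964), and USO1, the RAB1 effector p115, 81 and 1 (22.1-fold lower, 3.86 to 885). CCZ1 had 29 and 0 (at least 2.64-fold lower), but CCZ1B, also on the list, had 21 and 42 (7.32-fold higher, 4.24 to 13.0). How reads were divided between CCZ1 and CCZ1B was not tested.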

How the data were processed

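Poly(A) RNA of 5 HT1080 samples was amplified as cDNA and sequenced single-end; the submitters' processing notes name CASAVA 1.4, FastQC, Bowtie2 2.3.1, RSEM 1.2.25 and GRCh37/hg19. The authors deposited, per library, a read count and a TPM value per gene, with no molecular identifiers and no strand. RSEM estimates how reads shared by overlapping genes divide, and amplified reads are not independent molecules, so intervals cover counting error only. TPM was rescaled here to 1000000 without RNA5-8S5. Differences were taken as log2(TPM + 1), which understates the change of low genes, for genes with at least 1 TPM in a library, and called at 1 log2 unit. Read shares outside RNA5-8S5 were compared by conditional Clopper-Pearson 95% intervals (scipy 1.17.1, numpy 2.4.6, pandas 2.3.3). With 1 library per condition no test was run, and a count model could not be fitted. The calling steps were tested on simulated counts with counting error only, on CPM, in genes with at least 20 reads in LD. That does not cover sparser members, the TPM scale or reads divided between genes. A floor of 3 reads bounded folds against 0. Members called with at least 20 reads in the pair are described in full, up to 10 per direction, with the 10 members of highest mean level, shared-machinery genes and up to 3 cycle genes per direction; some genes of the marker and machinery lists are not reported here. Members, lists and rules were chosen with earlier results of these data known. Depth was 926376 to 7118545 reads. Columns of other samples numbered 0. A cell-free collagen control was not analysed here. Promoter windows came from RefSeq (GRCh38.p14), and exon overlaps from GENCODE 29 on GRCh38, where 29 of the 60 members share exonic bases with another gene, 15 of them with 1 in the files.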

Additional observations from a re-analysis of the deposited data

Results flagged for a closer look

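The step from no IL-8 to IL-8 went opposite ways without and with IL-6 in 4 of the 36 Rab genes with at least 20 reads over the 4 low-density libraries, or 11.1%, near the 9.52% of 10543 genes with an opposite pair for either cytokine. Each step is 1 library against 1 library, so the difference between the steps was not tested. RAB5A differed by 1.81 on the log2 scale between IL-8 and LD and by −1.30 between RM and IL-6. For RAB11A the steps were 1.64 and −1.42. With the median-ratio scaling, tried for these steps after seeing the data, the second step was −0.70 in RAB5A and −0.73 in RAB11A, so that neither pair kept 1 log2 unit each way. RAB24 had steps of 1.08 and −1.77, and its same-strand neighbour MXD3 had 9 reads in IL-8 and 212 in RM. RAB36 had steps of 1.25 and −1.39 on 24 reads in the 4 libraries together.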

How the results depend on the processing

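No paired analysis was possible because each condition had 1 library, and no library could be left out for the same reason. Of 114 recomputed counts and medians 92 stayed near the reported value and 22 moved. None of the named members changed direction in 575 recomputations. Those that changed only the minimum repeat the main difference and could not reverse. They were 69 with no minimum, 69 without HD in it, and 44 and 48 with the read minimums. The 69 with each other pseudocount could not reverse either, since the same value is added to both libraries. A reversal was possible only in the 69 with each other scaling. The medians of the members were likewise fixed with no minimum and without HD in it. The number of members that differed by at least 1 log2 unit moved mainly with the weight given to low reads. With a pseudocount of 5 TPM it was 4 (IL-6), 10 (IL-8) and 9 (RM) against LD, beside 6.97%, 11.8% and 14.6% of all genes. It was 7 for RM against IL-6 (15.5% of genes) and 8 for RM against IL-8 (13.8%). With 0.1 TPM it was 17 for IL-6 (32.7% of genes). With at least 10 reads in both libraries it was 2 of 29, 9 of 29 and 7 of 26 for IL-6, IL-8 and RM (14.3%, 27.3% and 35.0% of such genes). It was 15 of 23 for HD (69.4%), 6 of 25 for RM against IL-6 (37.0%) and 5 of 24 for RM against IL-8 (32.3%). With a mean of at least 20 reads at low density, chosen after seeing the data, it was 2, 9, 9 and 15 of 25 against LD. Such genes passed in 16.0%, 31.9%, 41.1% and 68.3%. It was 8 for RM against IL-6 (42.1% of genes) and 6 for RM against IL-8 (38.2%), and the HD median turned from 0.46 to −0.64. When the read interval also had to leave out 1, it was 5 for IL-6 (10.5% of genes) and 25 for HD (58.3%). The read minimums test fewer genes by construction, and for the other settings the cause was not tested. The median-ratio scaling, with factors of 1.02, 0.732, 0.602 and 1.29 relative to LD for IL-6, IL-8, RM and HD, moved the RM median from −0.40 to 0, and the median over all genes from 1.85 to 1.59 for HD and from −0.19 to 0 for RM against IL-6. It left 10 of 69 named differences under 1 log2 unit. Counts of few reads, above all in HD, limit every fold.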
